A study of Mus musculus with 6 samples.

Results

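The gene set described here holds 9 regulators, of 24815 gene identifiers listed in the files. They were chosen by name as regulators of the fetal blood program and of globin switching, and each symbol matched 1 Ensembl identifier: Lin28b, Hmga2, Igf2bp1, Igf2bp2, Igf2bp3, Bcl11a, Zbtb7a, Myb and Sox6. RNA was sequenced from common myeloid progenitors (CMPs), the precursors of the erythroid-megakaryocytic and the granulocyte-monocyte branches of blood formation, sorted from the fetal liver of C57BL/6 mice at stage E13.5 (embryonic day). There were 3 libraries of -77-/- cells (mutants C, D and Q), homozygous for loss of the Gata2 -77 enhancer, and 3 libraries of wild-type cells (A, F and L). Both groups share strain, stage and sorting gate, which took lineage-negative (also for CD41 and CD48), Sca-1-, CD34+, FcR-low and c-Kit+ cells, and the labels give no treatment. Separate embryos or pools of embryos are not named as the source of each library, so a p-value here reflects the spread among these libraries, which may be technical. The comparison asks how the level of each regulator differs in CMPs without the enhancer.

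LIN28B is an RNA-binding protein that blocks maturation of let-7 microRNAs, and it keeps fetal blood progenitors in a fetal mode. HMGA2, a chromatin protein, and the mRNA-binding proteins IGF2BP1, IGF2BP2 and IGF2BP3 are well known targets of let-7, so these 5 genes are often treated as the fetal, let-7-repressed side of the program. On the other side, BCL11A and ZBTB7A (also called LRF) silence embryonic and fetal-type globin genes in erythroid cells, SOX6 cooperates in that silencing, and MYB maintains proliferating progenitors and, in human cells, favours silencing of the fetal globin genes.

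The seed of let-7 and its matches are shown here for the fetal side of the set. Its 5 genes were grouped above as let-7-repressed, so the matches describe them and are no separate evidence for the grouping. All 9 mouse let-7 and miR-98 5p arms in the RefSeq table (GRCm38.p6) share the seed at bases 2 to 8, in capitals in these 3 examples, written 5′ to 3′.
mmu-let-7a-5p: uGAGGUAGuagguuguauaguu
mmu-let-7g-5p: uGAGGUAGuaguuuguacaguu
mmu-miR-98-5p: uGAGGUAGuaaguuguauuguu

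The 7-base match to the seed (CTACCTC, sense strand of the 3′ UTR) occurred 4 times each in Lin28b, Hmga2 and Igf2bp1 and 1 time each in Igf2bp2 and Igf2bp3 (GENCODE M21 annotation of mm10). It occurred 0 times in the 3′ UTRs of Bcl11a, Zbtb7a, Myb and Sox6. Of 19888 genes with a 3′ UTR, 8.71% had at least 1 match and 2.97% had the 8-base form CTACCTCA. Among UTRs within 20% of the same length, the share with a match ran from 8.54% for the length of Myb to 34.3% for that of Igf2bp1. For the other 3 genes with no match it was 18.2% (Bcl11a), 21.1% (Zbtb7a) and 30.4% (Sox6), so most UTRs of those lengths have none either. A match is a description of the letters, and let-7 itself was not measured here. One 8-base match of each of the 5 genes is shown with its neighbouring bases, match in capitals, all on the minus strand of mm10.
Lin28b, chr10:45381020-45381049: ccttcacccgggcgggaagtCTACCTCAtg
Hmga2, chr10:120364222-120364251: ggggcgccgacattcaatttCTACCTCAgc
Igf2bp1, chr11:95961776-95961805: gcagtgctgtgcgaagtaaaCTACCTCAag
Igf2bp2, chr16:22059471-22059500: gaaaaacacacaaataaaagCTACCTCAgg
Igf2bp3, chr6:49086785-49086814: aaacgtgcatttttactcaaCTACCTCAgg

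The libraries held between 14473913 and 30596279 expected counts each. Gata2, the gene the deleted enhancer is named for, was lower in every mutant library, with 8.92, 16.5 and 17.8 CPM (read counts relative to the library total, scaled by TMM factors) in mutants C, D and Q, against 78.6, 57.4 and 63.9 CPM in wild-type A, F and L. Its log2 fold change was -2.20 with 6 libraries (adjusted p = 0.068, edgeR) and -1.97 without mutant C (adjusted p = 0.0019, edgeR). Mutant C stood apart from the other 5 libraries: its correlations of log2 CPM across genes with them were 0.88 to 0.923, against 0.974 to 0.989 among the other 5. Ribosomal protein genes took 21.8% of its counts, against 6.82% to 9.21% in the other libraries, and mitochondrial genes took 10.1%, against 3.54% to 5.80%. Averaged over its counts, gene length was 1781 bases in that library and 2834 to 3124 bases elsewhere. The edgeR fold changes of the regulators are therefore given with all 6 libraries and without mutant C. Markers of CMPs (Kit, Cd34, Spi1, Cebpa, Mpo, Flt3 and Fcgr3) were present in all libraries, with a summed level of 1016 to 3232 TPM in the mutants and 2824 to 4075 TPM in wild type.

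Among the 9 regulators, Sox6 and Myb were the 2 called lower in the mutants (adjusted p under 0.05) once mutant C was left out. Sox6 was 4.78-fold lower and Myb 1.49-fold lower, with adjusted p = 0.022 and 0.020 (edgeR quasi-likelihood test, Benjamini-Hochberg over 12614 genes). Against this, 0.761% of all genes tested were called lower and 0.0793% higher, and 0 of the 9 regulators were called higher. On these 5 libraries DESeq2 also called 2 of the 9 lower, where 1.43% of its genes were called lower, and limma-voom called 2 lower, where 0.769% of its genes were. At an unadjusted p under 0.05 edgeR listed 3 of the 9, Bcl11a being the third, against 10.4% of all genes. With all 6 libraries none of the 9 was called by edgeR, where 0.155% of 12222 genes tested were called in either direction. At an unadjusted p under 0.05 the same fit listed 2 of the 9, Myb and Sox6, against 4.8% of all genes. DESeq2 on the 6 libraries called 1 of the 9, Sox6, lower (0.577% of its genes were called lower), and limma-voom called 0 (0.262% of its genes were called).

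**Figure D1:**
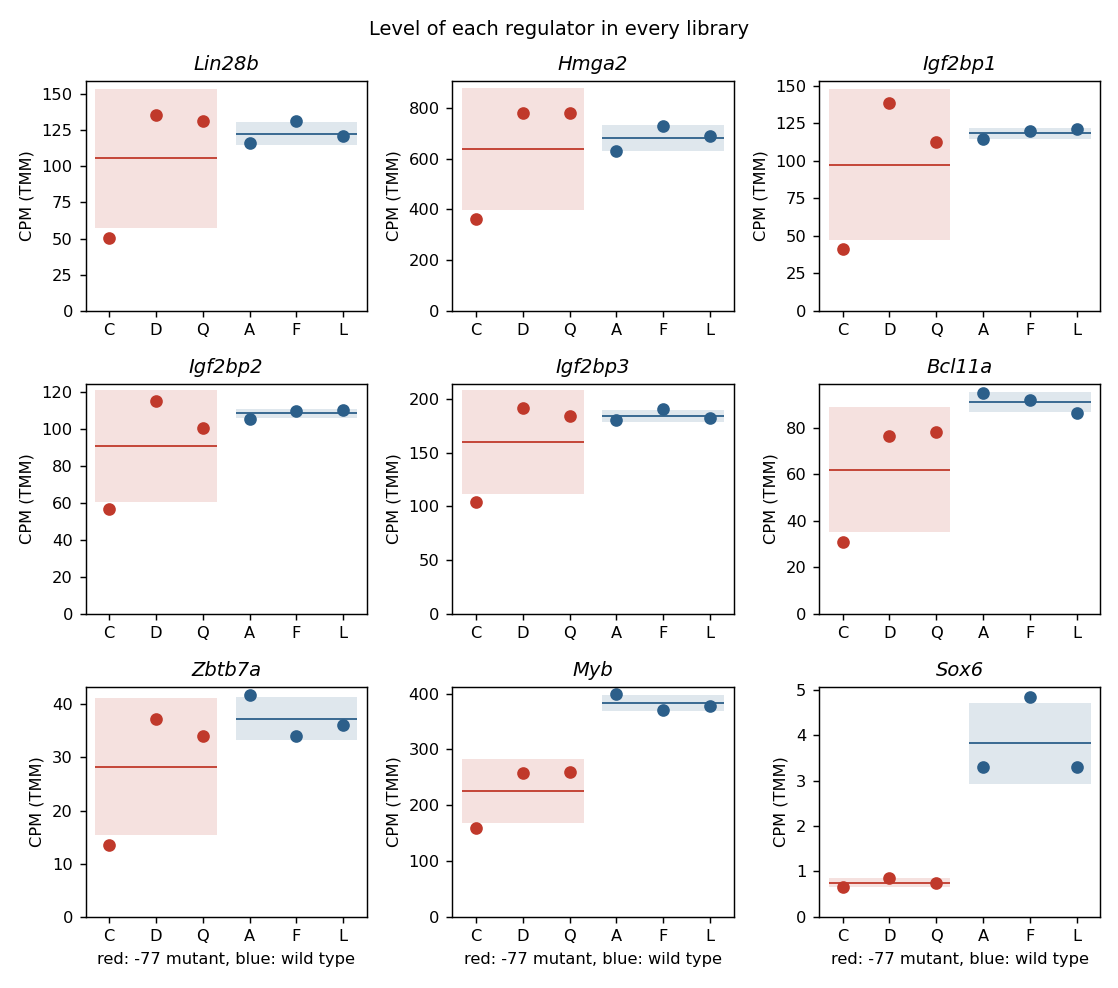
CPM (counts relative to the library total, TMM-scaled) of each of the 9 regulators in every library, -77 mutants C, D and Q (red) on the left of each panel and wild types A, F and L (blue) on the right; points are libraries, lines are group means and bands are 1 SD, n = 3 each. Mutant C is the lowest library in all 9 panels, and mutants D and Q lie below all wild types for Bcl11a, Myb and Sox6.

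The RNA level of the set spans a wide range. Per length (TPM, deposited values that correct for gene length), the 9 genes kept one order of means in both groups. The mutant means were 272 ± 182 TPM for Hmga2, 105 ± 64.2 for Myb, 57.0 ± 36.4 for Igf2bp3, 42.0 ± 27.7 for Igf2bp2, 31.6 ± 22.4 for Lin28b, 24.5 ± 15.4 for Bcl11a, 19.0 ± 14.4 for Igf2bp1, 8.79 ± 6.30 for Zbtb7a and 0.167 ± 0.1002 for Sox6 (SD, n = 3 each), the wide SDs including mutant C. The wild-type means were 362 ± 14.1 TPM for Hmga2, 233 ± 27.1 for Myb, 83.8 ± 5.45 for Igf2bp3, 63.1 ± 3.03 for Igf2bp2, 44.8 ± 2.55 for Lin28b, 44.5 ± 3.27 for Bcl11a, 27.8 ± 1.28 for Igf2bp1, 13.46 ± 3.15 for Zbtb7a and 0.987 ± 0.185 for Sox6 (SD, n = 3 each). Lin28b and Bcl11a are neighbours whose wild-type libraries overlapped, and all other neighbours in this order were separate in wild type. Hmga2 stood at the 97.0 percentile of all tested genes and Sox6 at the 6.95 percentile, so Sox6 is a rare transcript in these progenitors.

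Lin28b, the let-7 blocker, lies at chr10:45376620-45486395 on the minus strand. It had 50.1, 136.0 and 131.3 CPM in mutants C, D and Q, against 116.0, 131.3 and 121.0 CPM in wild-type A, F and L. Mutant C was far below every other library, while D and Q lay at or just above the highest wild type. The log2 fold change was -0.21 (SE 0.37, adjusted p = 0.75, edgeR) with 6 libraries and 0.12 (SE 0.08, adjusted p = 0.65, edgeR) without mutant C. The second interval, -0.07 to 0.30 on the log2 scale at 95%, is what the 5 libraries allow, and on the log2(TPM + 1) scale the sign turned, to -0.02.

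Hmga2, a DNA-bending protein of fetal stem cells and a let-7 target, lies at chr10:120361275-120476469. It had 361, 779 and 779 CPM in mutants C, D and Q, against 629, 728 and 688 CPM in wild-type A, F and L. As with Lin28b, mutant C was the lowest library and D and Q were the highest. Without mutant C its log2 fold change was 0.18 (SE 0.08, 95% interval -0.01 to 0.38), with an adjusted p of 0.51 by edgeR. With 6 libraries it was -0.09 (SE 0.33).

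The IGF2BP family of mRNA-binding proteins gave 3 genes with the same shape. Igf2bp1 (chr11:95957163-96005940) had 41.2, 139 and 112 CPM in mutants C, D and Q, against 114, 120 and 121 CPM in wild-type A, F and L. Igf2bp2 (chr16:22059009-22163299) had 56.7, 115 and 101 CPM in the mutants, against 106, 110 and 110 CPM in wild type. Igf2bp3 (chr6:49085223-49214957) had 104, 191 and 185 CPM in the mutants, against 180, 190 and 182 CPM in wild type. In each, mutant C was lowest and D was highest, while Q lay below the wild types for Igf2bp1 and Igf2bp2 and among them for Igf2bp3. Without mutant C the log2 fold changes were 0.08 (95% interval -0.16 to 0.31) for Igf2bp1, -0.02 (-0.21 to 0.18) for Igf2bp2 and 0.02 (-0.15 to 0.19) for Igf2bp3, and with 6 libraries they were -0.28, -0.26 and -0.20. The lowest adjusted p of these 6 edgeR results was 0.63. On the log2(TPM + 1) scale the values of Igf2bp1 and Igf2bp3 without mutant C turned to -0.06 and -0.11. Of the summed TPM of the family, Igf2bp3 made up 52.4%, 46.7% and 49.4% in mutants C, D and Q, against 48.2%, 48.5% and 47.1% in wild-type A, F and L. Igf2bp1, the longest of the 3, made up 10.7% in mutant C and 17.5% and 15.6% in D and Q, against 15.8%, 15.8% and 16.2% in wild type.

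Bcl11a, the zinc-finger repressor of fetal-type globin genes, lies at chr11:24078056-24174123 on the plus strand. It had 30.8, 76.5 and 78.1 CPM in mutants C, D and Q, against 94.99, 91.9 and 86.4 CPM in wild-type A, F and L. All 3 mutants lay below all 3 wild types, with or without mutant C. Its log2 fold change was -0.56 (SE 0.35, adjusted p = 0.58, edgeR) with 6 libraries and -0.25 (SE 0.08, 95% interval -0.43 to -0.07) without mutant C, where the unadjusted p was 0.0142 and the adjusted p 0.32 (edgeR), so it did not pass the threshold.

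Zbtb7a, the LRF repressor of globin genes, lies at chr10:81135220-81152995. It had 13.55, 37.2 and 34.0 CPM in mutants C, D and Q, against 41.8, 34.0 and 36.1 CPM in wild-type A, F and L. Apart from mutant C, the groups overlapped. The log2 fold change without mutant C was -0.08 (SE 0.10, 95% interval -0.32 to 0.16), and with 6 libraries -0.39 (SE 0.37). Whether its change differs from that of Bcl11a was not tested.

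Myb, the transcription factor that keeps progenitors cycling, lies at chr10:21124935-21160984 on the minus strand. It had 159, 257 and 260 CPM in mutants C, D and Q, against 399, 371 and 378 CPM in wild-type A, F and L. The groups did not overlap, and D and Q lay close together. Without mutant C its log2 fold change was -0.57 (SE 0.08, 95% interval -0.76 to -0.39), the adjusted p being 0.020 (edgeR). With 6 libraries the change was -0.76 (SE 0.23, unadjusted p = 0.0157, adjusted p = 0.58, edgeR). In TPM it was 31.7, 150 and 134 in the mutants, against 264, 218 and 217 in wild type.

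Sox6, the SoxD factor that works with BCL11A at the globin locus, lies at chr7:115470872-116038796 on the minus strand. It had 0.661, 0.860 and 0.744 CPM in mutants C, D and Q, against 3.30, 4.86 and 3.32 CPM in wild-type A, F and L. These levels rest on 6, 18 and 24 expected counts in the mutants, against 83, 77 and 56 in wild type, and the groups did not overlap. Its log2 fold change was -2.31 (SE 0.29, adjusted p = 0.0539, edgeR) with 6 libraries and -2.26 (SE 0.31, 95% interval -2.98 to -1.53, adjusted p = 0.022, edgeR) without mutant C. On the log2(TPM + 1) and log2(TPM + 0.1) scales, which understate changes of low genes, the adjusted p without mutant C was 0.146 and 0.093 (limma). It is the one regulator of the 9 whose fold change was nearly the same with and without mutant C, and it is also the one with the fewest reads.

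With further libraries left out of the 5, both calls ended when mutant D, mutant Q, wild-type F or wild-type L was removed (adjusted p of 0.168, 0.252, 0.098 and 0.078 for Myb, and 0.144, 0.257, 0.053 and 0.062 for Sox6, edgeR), and stood when wild-type A was removed; leaving out a mutant leaves 1 mutant library, assumed to vary like the wild types. Leaving out any of the 5 moved the Myb change only between -0.60 and -0.54, and that of Sox6 only between -2.35 and -2.06. Groups that did not overlap in CPM were found in 3 of the 9 regulators, all lower in the mutants with 6 libraries, where 11.4% of tested genes did so. Without mutant C the same 3 (Bcl11a, Myb and Sox6) lay below the wild types (background 14.6%), and Lin28b and Hmga2 lay above them (background 14.5%), Lin28b by less than 1 CPM. In TPM these last 2 genes overlapped.

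**Figure D2:**
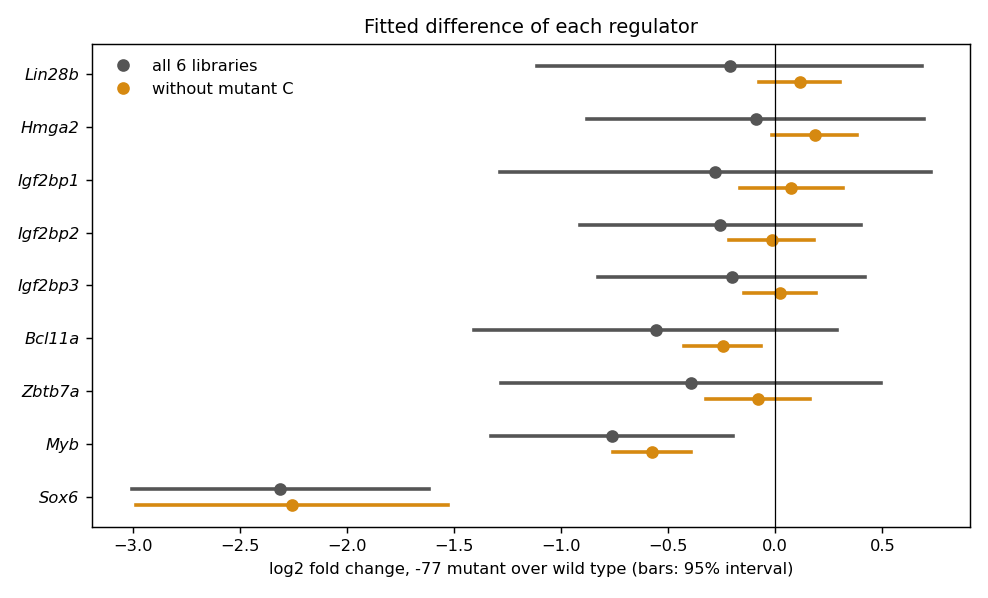
Log2 fold change of each regulator, -77 mutant over wild type, from the edgeR fits, with bars for the 95% interval; grey marks all 6 libraries and orange the 5 without mutant C. Without mutant C the intervals of Myb, Sox6 and Bcl11a lie below 0, and those of the other 6 span 0.

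The median log2 change of the 9 was -0.28 with 6 libraries, against -0.02 over all genes tested. Without mutant C it was -0.02, against -0.01 over all genes. All 9 changes were below 0 with 6 libraries, and 5 were below and 4 above without mutant C, and leaving out mutant C moved the median of the set by more than that of all genes.

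Mutant C gave less signal to long genes, and these regulators are long. Their lengths in the file of wild-type A ran from 3264 bases (Myb) to 8378 bases (Igf2bp1), against a median of 2622 bases over tested genes. Across 12222 tested genes, Spearman's rho between length and the log2 ratio of mutant C to the mean of D and Q was -0.76 (genes are not independent replicates, and the points share these 3 libraries), and over the 9 regulators it was -0.43. The level in mutant C relative to D and Q was -1.61 on the log2 scale for Igf2bp1, -1.42 for Lin28b, -1.39 for Zbtb7a, -1.33 for Bcl11a and -1.11 for Hmga2, and the average gene of the same length stood at -1.35, -0.94, -0.94, -0.58 and -0.51. Igf2bp2 (-0.93), Igf2bp3 (-0.86) and Myb (-0.70) were beyond their length averages of -0.40, -0.71 and -0.35, while Sox6 (-0.28) lay above its average of -1.22, on 6 counts in mutant C. With gene length as an offset in the 6-library fit, the change became 0.07 for Lin28b, 0.08 for Hmga2, 0.11 for Igf2bp1, -0.10 for Igf2bp2, 0.06 for Igf2bp3, -0.37 for Bcl11a, -0.10 for Zbtb7a, -0.61 for Myb and -1.95 for Sox6. None of the 9 passed in that fit (adjusted p = 0.20 for Myb and 0.094 for Sox6, edgeR).

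**Figure D3:**
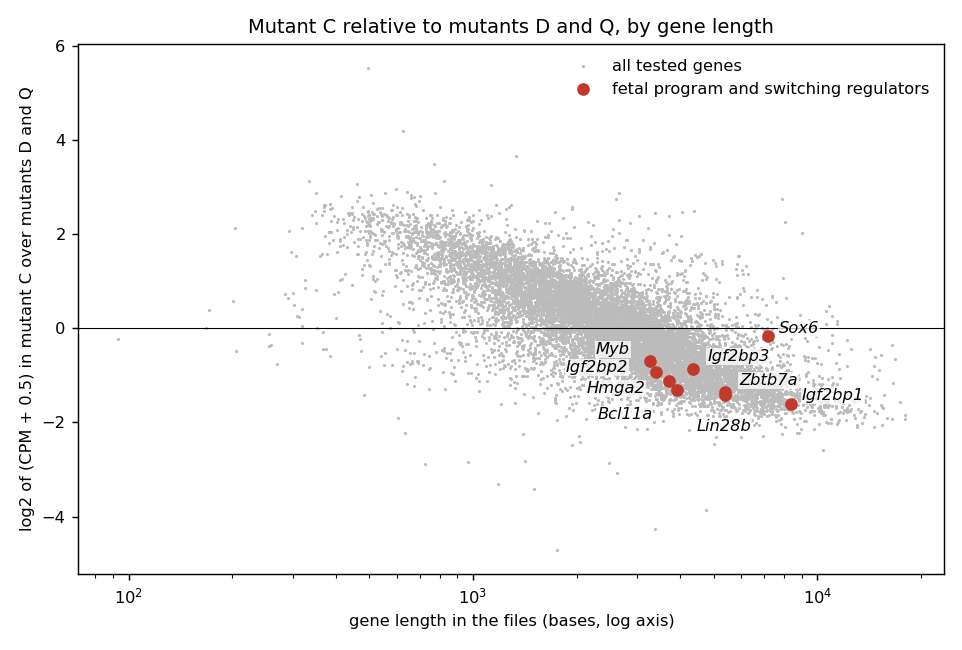
Log2 of CPM plus 0.5 in mutant C over the mean of mutants D and Q, against gene length in bases on a log axis; grey points are tested genes, of which 12216 are shown and 6 lie outside the axis, and red points are the 9 regulators. Longer genes sit lower, and among the regulators Igf2bp1 lies lowest and Sox6 closest to 0.

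Ratios between members do not move with a shift common to a library, but they can move with an effect of gene length such as that of mutant C. The ratio of Myb to Hmga2 in TPM was 0.504, 0.378 and 0.376 in mutants C, D and Q, against 0.723, 0.581 and 0.626 in wild-type A, F and L, and the groups did not overlap. Bcl11a over Lin28b was 1.13, 0.719 and 0.791 in the mutants, against 1.04, 0.962 and 0.987 in wild type, with mutant C above every wild type. Lin28b exceeded its paralog Lin28a by 3.54, 15.5 and 7.51 times in the mutants, against 7.32, 8.97 and 11.9 times in wild type, and these overlapped. Lin28a itself was low, at 3.59 to 6.79 CPM in the mutants and 5.27 to 7.19 CPM in wild type.

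Other genes of the same pathways were described by count. Of 10 genes that process or decay let-7, among them Dicer1, Drosha and the uridylyl transferases Tut4 and Tut7, none was called with or without mutant C by edgeR, DESeq2 or limma-voom, and none had an unadjusted p under 0.05. Their median log2 change was -0.33 with 6 libraries and -0.09 without mutant C, and the 3 with the smallest p had changes of 0.48 (Tarbp2, a partner of Dicer), -0.50 (Tut7) and -0.32 (Dgcr8, a partner of Drosha) with 6 libraries, and of 0.12, -0.22 and -0.15 without mutant C. Of 20 other let-7 targets, 19 were tested with 6 libraries, 0 were called by any of the 3 tools and 0 had an unadjusted p under 0.05 by edgeR. Without mutant C edgeR called 0 of 20 and listed 5 at an unadjusted p under 0.05, against 10.4% of all genes. Their log2 changes were 1.38 for Trim71 (at most 0.11 TPM in any library), 0.54 for Hmga1, 0.37 for Ccnd2, 0.33 for Mycn and -0.62 for Igf1r. DESeq2 called Hmga1 and Igf1r without mutant C, and limma-voom called 0. The median change of these let-7 targets was -0.11 with 6 libraries and -0.03 without mutant C. Hmga1, a relative of Hmga2, had 767, 1100 and 1128 CPM in mutants C, D and Q, against 911, 598 and 776 CPM in wild-type A, F and L. In edgeR its log2 change was 0.39 with 6 libraries and 0.54 without mutant C (adjusted p = 0.58 and 0.30), and that of Igf1r, the IGF1 receptor, was -0.95 and -0.62 (adjusted p = 0.58 and 0.085).

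Of the NuRD complex and other corepressors that BCL11A and ZBTB7A recruit, none of 20 was called by any of the 3 tools, and none had an unadjusted p under 0.05. Their median change was -0.14 with 6 libraries and 0.03 without mutant C. Hdac1, a histone deacetylase of the complex, had 331, 200 and 198 CPM in mutants C, D and Q, against 171, 189 and 192 CPM in wild-type A, F and L, with mutant C above the rest, and its log2 change was 0.40 with 6 libraries and 0.11 without mutant C.

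Of 19 other regulators of the globin locus, edgeR called 3 lower without mutant C, against 0 of 18 with 6 libraries. With 6 libraries DESeq2 called the same 3, limma-voom called Gata1 and edgeR listed 4 at an unadjusted p under 0.05. Without mutant C limma-voom called the same 3, DESeq2 called these and Tal1, and edgeR listed 5 at an unadjusted p under 0.05. Gata1, the master factor of red cells, had 2.86, 0.813 and 1.18 CPM in mutants C, D and Q, against 29.6, 20.2 and 24.5 CPM in wild-type A, F and L. Its log2 change was -4.06 with 6 libraries and -4.61 without mutant C (adjusted p = 0.0539 and 0.00066, edgeR). Klf1, the erythroid factor that activates adult globin and Bcl11a, had 2.42, 1.0995 and 0.837 CPM in the mutants, against 8.99, 6.81 and 6.99 CPM in wild type. Zfpm1, the GATA1 partner FOG1, had 8.37, 16.5 and 17.3 CPM in the mutants, against 59.8, 44.7 and 44.0 CPM in wild type. These erythroid factors were separate between the groups in every library, and the changes of Klf1 and Zfpm1 were -2.49 and -1.80 with 6 libraries (adjusted p = 0.15 and 0.16, edgeR) and -3.00 and -1.56 without mutant C (adjusted p = 0.0035 and 0.0059, edgeR). The median of the whole list was -0.34 with 6 libraries and -0.09 without mutant C.

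Of 13 family relatives, 9 were tested and none was called by edgeR, which listed 1 at an unadjusted p under 0.05 with 6 libraries and 2 without mutant C. DESeq2 called none with 6 libraries and Hmga1 and Zbtb16 without mutant C, where limma-voom called Zbtb16. Zbtb16, the PLZF relative of ZBTB7A, had 4.85, 11.4 and 11.3 CPM in mutants C, D and Q, against 17.7, 16.6 and 17.5 CPM in wild-type A, F and L. Its log2 change was -0.89 with 6 libraries and -0.61 without mutant C (adjusted p = 0.58 and 0.054, edgeR). Of 11 genes known as MYB targets, none was called by any of the 3 tools, and edgeR listed 0 at an unadjusted p under 0.05 with 6 libraries and 2 without mutant C. The 3 with the smallest p with 6 libraries were Cd34, Ada and Lmo2. Their changes with 6 libraries and without mutant C were 0.44 and 0.33 for Cd34, 0.62 and 0.09 for Ada, and 0.47 and 0.10 for Lmo2. Kit had changes of -0.57 and -0.23, and Mpo of -0.22 and -0.09. Of the changes of all MYB targets, 4 of 11 were below 0 with 6 libraries (median 0.12) and 6 of 11 without mutant C (median -0.01).

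Of 7 globin genes, 5 were tested with 6 libraries and 6 without mutant C, and edgeR and limma-voom called none. EdgeR listed 1 at an unadjusted p under 0.05 with 6 libraries and 5 without mutant C, where DESeq2 called Hba-a1 and Hbb-bt. The median change was 0.52 with 6 libraries and -0.90 without mutant C. Reads of near-identical globin genes may be split by the counting, so single values are uncertain. Hbb-y, the embryonic beta-like globin, had 21.7, 3.11 and 2.39 CPM in mutants C, D and Q, against 1.79, 0.378 and 0.829 CPM in wild-type A, F and L. Its change was 3.07 with 6 libraries (adjusted p = 0.58, edgeR) and 1.37 without mutant C (adjusted p = 0.44, edgeR). For the adult globin Hbb-bs the levels were 649, 89.4 and 86.9 CPM in the mutants, against 187, 265 and 124 CPM in wild type. The sign of its change turned with mutant C: it was 0.52 with 6 libraries (adjusted p = 0.73, edgeR) and -1.13 without mutant C (adjusted p = 0.19, edgeR).

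**Figure D4:**
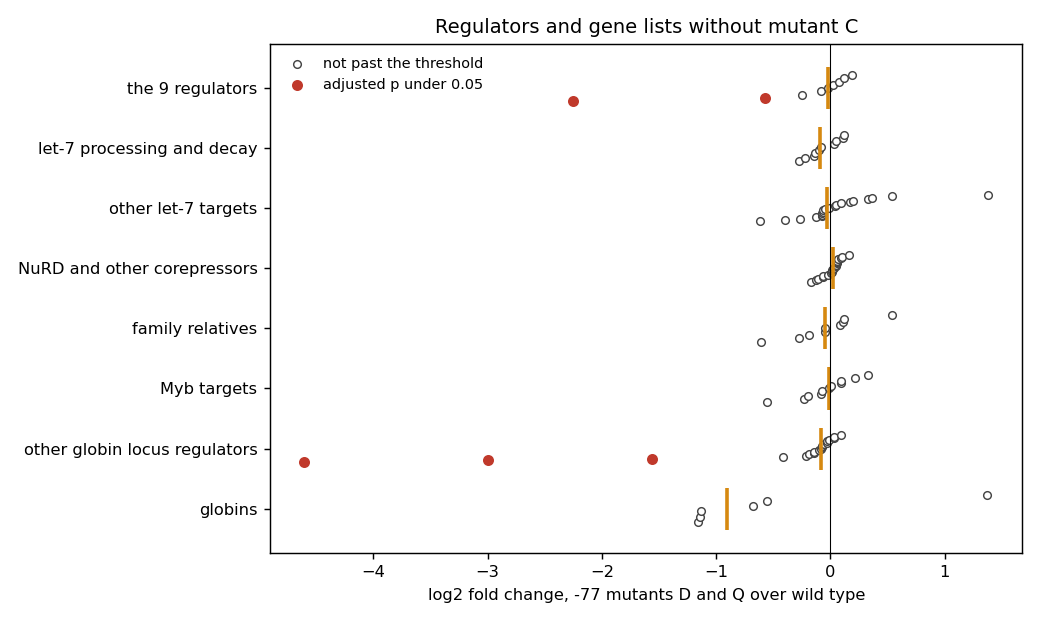
Log2 fold change, -77 mutants D and Q over wild type, of every tested gene in each list (open points; filled red where the edgeR adjusted p was under 0.05), with an orange bar at the median of each list and the 9 regulators in the top row. Sox6 and Myb are the filled points of the regulators, and Gata1, Klf1 and Zfpm1 those of the other globin locus regulators.

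Markers of other cell types differed between libraries. A change in the number of cells of a type and a change in RNA per cell cannot be told apart in bulk RNA. Summed TPM of 11 hepatoblast markers was 106, 133 and 605 in mutants C, D and Q, against 173, 103 and 76.0 in wild-type A, F and L. Their median log2 change was 2.87 with 6 libraries and 2.97 without mutant C, with 1 and 0 of the 11 below 0. EdgeR called none of the 11. At an unadjusted p under 0.05 it listed 7 with 6 libraries (4.8% of all genes) and 9 without mutant C (10.4%), all higher in the mutants. DESeq2 called 5 higher with 6 libraries (Afp, Apoa1, Apoa2, Ttr and Ahsg) and 2 without mutant C (Apoa2 and Ttr). The 7 erythroblast markers summed to 1097, 456 and 401 TPM in the mutants, against 918, 1173 and 605 TPM in wild type, and Ermap was called lower without mutant C. Macrophage, endothelial, mesenchymal, B lymphoid and stem cell sums of TPM were lowest in mutant C, as was that of the CMP markers (1016 TPM). Their sums in mutants and wild type ran from 40.1 to 120 TPM and 89.5 to 115 TPM for macrophages, up to 37.7 and 41.5 to 45.3 for endothelium, 1.36 to 8.68 and 9.95 to 10.9 for mesenchyme, 1.87 to 7.63 and 7.93 to 9.93 for B lymphoid cells, and 7.19 to 36.2 and 32.0 to 32.9 for stem cells. In CPM, single markers went either way in mutant C. Cd68, of macrophages, had 16.3, 9.99 and 9.58 CPM in mutants C, D and Q, against 9.58, 7.57 and 8.52 CPM in wild type. Pecam1, of endothelium, had 36.3, 46.8 and 43.9 CPM in the mutants, against 54.6, 56.5 and 58.4 CPM in wild type. Emcn, of the same list, went the other way, with 12.2, 5.98 and 6.23 CPM in the mutants, against 3.94, 4.98 and 5.51 CPM in wild type. Of the 5 endothelial markers tested, 2 had changes below 0 in each fit, and the median was 0.09 with 6 libraries and 0.31 without mutant C. Of the 6 stem cell markers, Slamf1 was called lower in both fits. The median log2 change of the 6 was 0.29 with 6 libraries and 0.25 without mutant C, with 3 and 1 below 0. Mecom and Fgd5 had changes of 0.95 and 0.23 without mutant C (adjusted p = 0.16 and 0.41, edgeR). No marker gene was at 0 in every library, and the part of these cells in the levels of Myb and Sox6 was not tested.

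The start regions of Myb and Sox6 are shown because both genes were called lower without mutant C, together with a search for the letters that GATA factors bind. Promoters were taken from RefSeq (GRCm38.p6), from 250 bases before to 50 after each annotated start, and 8 of the 9 genes had a promoter in the table, with 13 starts in all. A GATA motif (AGATAA or TGATAA, either strand, which share the letters GATAA) occurred in 18.6% of 32851 promoters, and AGATAA alone in 11.2%. It occurred in 4 of the 13 starts: those of Lin28b and Zbtb7a, with 2 each, and 2 of 6 Sox6 starts, with 1 each. Myb, Bcl11a, Hmga2, Igf2bp2 and Igf2bp3 had none in this window, which says only that these letters are not there. The Sox6 start at chr7:115846091-115846390 is one of the 2 with a motif (capitals, position -40 from the start); the Myb start has none. Both are written 5′ to 3′ on the minus strand.
Sox6: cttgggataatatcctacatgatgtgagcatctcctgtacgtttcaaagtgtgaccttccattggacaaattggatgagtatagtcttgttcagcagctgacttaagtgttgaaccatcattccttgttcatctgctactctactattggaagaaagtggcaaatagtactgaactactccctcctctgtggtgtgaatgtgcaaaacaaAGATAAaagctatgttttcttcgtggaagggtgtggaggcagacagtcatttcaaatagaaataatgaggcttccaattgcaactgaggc
Myb: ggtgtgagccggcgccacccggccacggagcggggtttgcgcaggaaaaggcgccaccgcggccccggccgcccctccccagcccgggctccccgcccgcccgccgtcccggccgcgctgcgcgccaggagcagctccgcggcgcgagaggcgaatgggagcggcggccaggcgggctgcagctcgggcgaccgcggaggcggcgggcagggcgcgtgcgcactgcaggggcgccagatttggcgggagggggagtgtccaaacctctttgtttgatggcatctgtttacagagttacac

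In the order of likeness over the 6 libraries, the genes whose log2 CPM followed Myb most closely were Dclre1a, Adcy6 and Med12l (Pearson r of 0.9986, 0.9983 and 0.998), out of 10442 genes with a mean of at least 50 counts. For Bcl11a they were Zfp507, Arhgef18 and Kdm3a (0.9999, 0.9993 and 0.9992), and for Lin28b Mier1, Mex3a and Fip1l1 (0.9997, 0.9996 and 0.9995). Those of Hmga2 were Slc39a10, Elk3 and Chd3, those of Igf2bp1 Mgrn1, Klhl21 and Sh3pxd2b, those of Igf2bp2 Gtf3c5, Tns3 and Pacs2, those of Igf2bp3 Fam168b, Qk and Tnks2, and those of Zbtb7a Nbeal2, Extl3 and Mphosph9, each with r of at least 0.9976. Mutant C lies apart from the rest in these values, so r describes 6 libraries of which 1 stands far off, and no p is given. Sox6 was too low in counts for this measure.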

How the data were processed

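RSEM 1.2.18, Bowtie 1.1.1 and CASAVA 1.8.2 were used on mm10, per the submitters' processing notes. For annotation release, read layout and strandedness the sources used here give no entry. The deposited expected counts, RSEM's unnormalized read estimates per gene per the file headers, were rounded to whole numbers and tested. The deposited TPM values, scaled for gene length and library total per the file headers, were used for levels between genes. FPKM values were also deposited by the authors and were not used. Gene lengths came from the deposited length column.

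Counts were filtered (edgeR filterByExpr, minimum 10), scaled by TMM and fitted with edgeR 4.0.16 (R 4.3.3) as -77 mutant over wild type, quasi-likelihood F test, Benjamini-Hochberg over all genes, threshold 0.05. DESeq2 1.42.0, limma 3.58.1 (voom and log2 TPM with a pseudocount of 1 or 0.1), other scalings and filters, length offsets (loess, span 0.5) and each library left out were alternatives, and every one was repeated without mutant C, a choice made after seeing the data. SE is the log2 change over the square root of F, and intervals are 95%. No libraries were paired, since replicate letters differ between groups. The fit was tested on simulated counts with the same dispersion for all genes and no library set apart as mutant C is. That simulation therefore does not show how the fit behaves with such a library.

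Reads of overlapping or near-identical genes cannot be told apart. Of 24815 identifiers, 24448 had a name. The members and lists were chosen with earlier results of these data known. The named genes are all 9 regulators, Gata2, and the 3 genes most like each regulator with enough counts. From the lists, some of the genes with the smallest p in the 6-library fit or behind a count of 5 or fewer are named, not all. Others were named after their values were seen. Sequences come from RefSeq (GRCm38.p6) and GENCODE M21 (mm10). The lowest chi-square per gene between libraries of a group was 9.25, so no library was a copy of another.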

Additional observations from a re-analysis of the deposited data

How the results depend on the processing

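With 6 libraries, 19 genes and 0 of the 9 regulators passed. The counts moved to 36 and 1 with no filter on low counts and to 124 and 1 by DESeq2 (Sox6 in both), and for genes alone to 32 by limma-voom, 11 on log2(TPM + 0.1) and 58 with length offsets. Leaving out 1 library gave 0 to 106 genes and 0 to 2 regulators, the highest without mutant C and 0 without any other. Without mutant C, 106 genes and 2 regulators passed, against 268 genes with no filter, 243 by DESeq2, and 1 regulator (Myb) on log2(TPM + 1) and on log2(TPM + 0.1); leaving out a further library gave 19 to 131 genes and 0 to 2 regulators.

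Signs turned mainly with mutant C. With 6 libraries, length offsets gave 0.074 for Lin28b, 0.083 for Hmga2, 0.112 for Igf2bp1 and 0.055 for Igf2bp3. Over the fits that left out 1 library, the changes ran from -0.43 to 0.12 for Lin28b, -0.26 to 0.18 for Hmga2, -0.62 to 0.076 for Igf2bp1 and -0.35 to 0.022 for Igf2bp3, each positive only without mutant C. Without mutant C, Igf2bp3 was -0.033 by library size alone. On log2(TPM + 1), Lin28b was -0.015, Igf2bp1 -0.060 and Igf2bp3 -0.109, and on log2(TPM + 0.1) they were -0.016, -0.063 and -0.110. Length offsets gave 0.059 for Igf2bp2 and 0.021 for Zbtb7a. Leaving out a further library put Igf2bp1 between -0.080 and 0.224, Igf2bp2 between -0.114 and 0.081, Igf2bp3 between -0.0011 and 0.052 and Zbtb7a between -0.143 and 0.019. The cause was not tested. Myb, Sox6 and Bcl11a stayed below 0 in every fit run in which they were tested. The median of all genes shifted to -0.29 by library size alone and to -0.50 on log2(TPM + 1) with 6 libraries. Sox6 rests on a mean of 44 counts and had no test at a mean of at least 50 counts with 6 libraries.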
